A study of Mus musculus with 4 samples.

Results

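Macrophages and other leukocytes carry a set of transcripts that fibroblast-like cells do not usually make, and 10 such genes were followed in cultured cells of the mouse hair follicle. The genes are Ptprc, Lyz2, Cd68, Csf1r, Adgre1, Tyrobp, Fcer1g, Cd74, C1qa and Evi2b. They are the rows of the deposited count table that bear these names, 10 of 51826 genes, each found once. They were listed with earlier results of these libraries known, their counts included, so every difference between libraries for these genes is given as a description and without a test.

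The cells were dermal papilla cells (DPCs), from the mesenchymal condensate at the base of the follicle, and dermal sheath cells (DSCs), from the connective tissue sleeve around it. Both were grown from whisker follicles of mice aged 5 to 6 weeks, of a C57BL/6J line with an EGFP transgene, although the labels give the genotype of all samples as WT. DPCs and DSCs at passage 3 are called low passage and those at passage 9 high passage, and each of these 4 groups was sequenced as 1 library, with no treatment besides passaging in DMEM. The study asked with these libraries what differs between low-passage and high-passage cells. Papillae were picked from the opened bulb by pipette and sheaths were freed with enzymes, and no step that removes leukocytes is described for the sequenced cultures. By flow cytometry the study reports weak expression of the protein CD45, the product of Ptprc, in both cell types. It treats CD45 as a negative marker of mesenchymal stem cells.

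Total counts lay between 34981284 and 47604059 per library. The fibroblast genes Col1a1 and Col1a2 had between 43703 and 450883 counts in each library, and the keratinocyte genes Krt5, Krt14, Krt15, Krt1 and Cdh1 and the melanocyte genes Tyr, Tyrp1, Dct and Mlana had none. Other genes of those lists did have counts, from 10 to 2307 for Dsp, from 33 to 61 for Krt10 and from 394 to 980 for Mitf. The dermal papilla gene Crabp1 had 22409 and 14584 counts in DPCs at passages 3 and 9 and 1518 and 20405 in DSCs at passages 3 and 9, the order used for every set of 4 values below. With no replicates, no difference has a replicate check, and passage cannot be told apart from the day or batch of library preparation.

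The genes cover successive layers of the myeloid programme. Ptprc encodes CD45, the phosphatase on the surface of all nucleated blood cells. Csf1r encodes the receptor for CSF1 and IL-34, on which most tissue macrophages depend. Tyrobp and Fcer1g encode DAP12 and the Fc receptor gamma chain, small adaptors whose ITAM motifs pass on the signals of many activating receptors. Adgre1 encodes F4/80 and Cd68 a protein of macrophage lysosomes. Lyz2 encodes the lysozyme of macrophages and neutrophils, C1qa a chain of the first complement component, and Cd74 the invariant chain that escorts MHC class II molecules. Evi2b encodes a membrane protein of myeloid cells whose gene lies within an intron of Nf1.

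All 10 genes had counts in both low-passage libraries, and all 10 were lower at high passage in DPCs and in DSCs. The counts summed over the 10 genes were 4974, 2381, 7066 and 4492, or 135, 66.3, 186 and 98.6 CPM (TMM-scaled counts divided by the library's depth). The sum at high passage was therefore 49.1% of that at low passage in DPCs and 52.9% in DSCs. Lyz2 alone supplied between 68.3% and 82.4% of it. Without Lyz2 and Cd68 the sums were 1314, 299, 1690 and 625 counts, and 23.3% and 30.8% of the low-passage level were left. Lyz2 and Cd68 were the least lowered genes in DSCs, and Lyz2 also in DPCs, so leaving them out makes the remaining share smaller. Their products are not confined to macrophages, but neither is that of Ptprc. In bulk RNA, fewer leukocytes and less RNA of these genes per cell cannot be told apart.

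**Figure D1:**
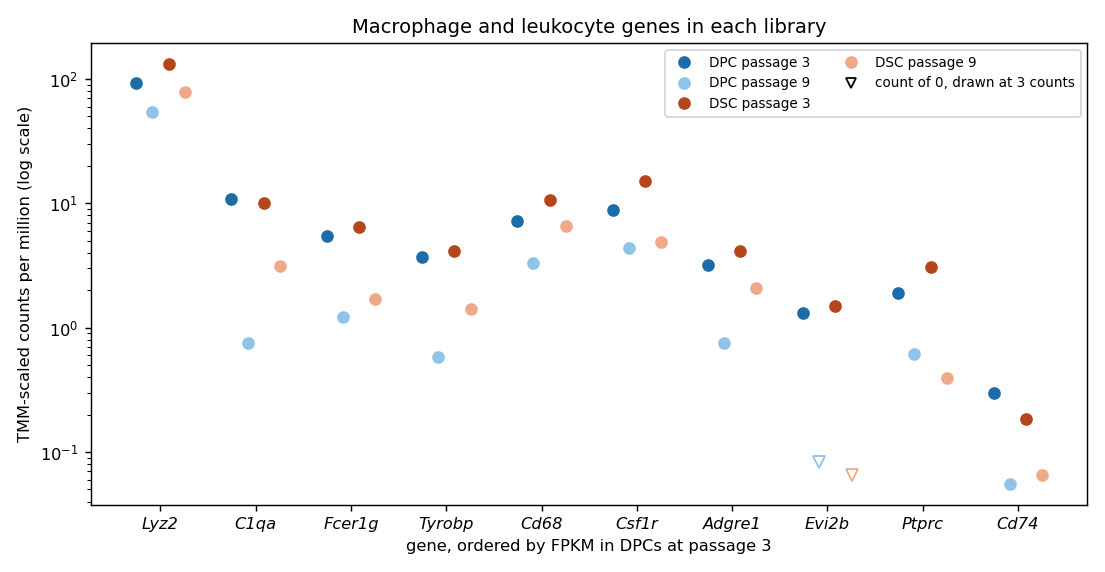
TMM-scaled CPM on a log axis for each of the 10 genes, 1 point per library, with genes ordered by FPKM in low-passage DPCs. For every gene the pale high-passage point lies below the dark low-passage point of the same cell type, and Evi2b has no counts at high passage.

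On the FPKM scale, which divides by transcript length and so allows genes to be compared, the order in low-passage DPCs ran from Lyz2 at 64.6 to Cd74 at 0.184. C1qa stood second at 9.65, followed by Fcer1g at 7.45, Tyrobp at 6.09 and Cd68 at 5.38. Csf1r at 1.74, Adgre1 at 0.914, Evi2b at 0.637 and Ptprc at 0.312 made up the lower end. Lyz2 lay at the 94.1 percentile of the 16734 genes with a mean count of at least 10, and Ptprc at the 13.8 percentile. Low-passage DSCs had Lyz2 and C1qa in the same first places, at 86.5 and 8.43 FPKM, and Cd74 last at 0.106. At high passage the order among the genes differed. C1qa stood at rank 6 in high-passage DPCs at 0.647 FPKM and at rank 3 in high-passage DSCs at 2.58, while Cd68 stood second in both, at 2.47 and 4.67.

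To describe the sequence before the starts of these genes, promoter windows were read from RefSeq (GRCm38.p6). There 5 of the 10 genes had an entry (Ptprc with overlapping windows at a pair of starts). PU.1, encoded by Spi1, is the ETS-family factor that drives much of myeloid gene expression, and ETS factors bind around a GGAA core. RefSeq places the starts within the deposited genes for Ptprc, Lyz2 and Fcer1g. They lie 403 and 582 bases into Ptprc, 49 bases into Lyz2 and 16 bases into Fcer1g. The windows of 250 bases before each RefSeq start were searched on both strands for GAGGAA, a PU.1 core, and for CAGGAAGT, an ETS consensus chosen after the windows had been read. CAGGAAGT was found in 4 of 6 windows, at 3 distinct sites since the overlapping windows of Ptprc share 1. It also occurs in 2.69% of all 32851 promoter windows, but as the motif was picked from the windows of these genes, nothing is read from this difference. GAGGAA was found in 2 of 6 windows, belonging to Ptprc and Cd68, and in 23.3% of all windows. The Fcer1g window held neither motif, so no motif was common to all the windows. Matches are a description of letters, not binding sites. For each gene with a match, 1 window that holds it follows, 5′ to 3′ along the gene. The match is in capitals (CAGGAAGT reads ACTTCCTG on the strand shown), and bases annotated as exon are left out. The second, overlapping Ptprc window, which holds the same CAGGAAGT site, is not shown. Ptprc lies at chr1:138175307-138175555, Lyz2 at chr10:117282322-117282522, Evi2b at chr11:79523763-79524012 and Cd68 at chr11:69666171-69666420, all on the minus strand.
Ptprc: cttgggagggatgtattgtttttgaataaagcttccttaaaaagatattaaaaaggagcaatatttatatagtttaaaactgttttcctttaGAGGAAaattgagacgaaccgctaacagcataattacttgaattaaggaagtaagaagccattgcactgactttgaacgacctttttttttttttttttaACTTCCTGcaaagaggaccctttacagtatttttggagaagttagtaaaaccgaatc
Lyz2: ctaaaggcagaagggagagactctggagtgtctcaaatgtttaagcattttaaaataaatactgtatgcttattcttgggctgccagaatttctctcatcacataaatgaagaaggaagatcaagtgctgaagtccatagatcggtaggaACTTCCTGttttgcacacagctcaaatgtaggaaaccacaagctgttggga
Evi2b: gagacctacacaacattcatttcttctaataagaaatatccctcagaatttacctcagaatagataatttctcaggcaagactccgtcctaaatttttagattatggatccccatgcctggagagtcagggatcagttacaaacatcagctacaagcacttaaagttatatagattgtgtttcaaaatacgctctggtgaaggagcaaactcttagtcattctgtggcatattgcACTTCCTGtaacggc
Cd68: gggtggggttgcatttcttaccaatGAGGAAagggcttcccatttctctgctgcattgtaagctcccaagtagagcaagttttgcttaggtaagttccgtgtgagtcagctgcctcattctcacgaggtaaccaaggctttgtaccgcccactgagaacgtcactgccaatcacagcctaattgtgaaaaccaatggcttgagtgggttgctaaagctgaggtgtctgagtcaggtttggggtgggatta

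Spi1 itself had 62, 27, 57 and 31 counts, so 44.7% of the low-passage level was left in DPCs and 45.3% in DSCs. It was named after its values had been seen, and a link between Spi1 and the 10 genes was not tested. The CAGGAAGT match lies 100 bases before the RefSeq start in Lyz2 and 15 bases before it in Evi2b. In Ptprc the same site lies 58 bases before the first start.

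The next comparison was that of high with low passage within each cell type. Differences are log2 ratios of TMM-scaled counts, high over low passage, with an exact 95% interval that covers counting error only. A gene was called 4-fold different when its log2 CPM, computed with a prior count of 2 that draws low counts together, differed by 2 or more. In DPCs, 5 of the 9 genes with a mean count of at least 10 were called lower (Adgre1, Tyrobp, Fcer1g, C1qa and Evi2b), against 4.36% of all 16734 genes. In DSCs, 2 of the 9 were called lower (Ptprc and Evi2b), against 1.16% of all genes. Evi2b alone was called in both, against 0.508% of all genes. None of the 9 was called higher in DPCs, in DSCs or in both, against 5.58%, 2.67% and 1.27% of all genes. The median of the 9 genes was -2.02 in DPCs and -1.61 in DSCs on the prior-count scale, where the median of all genes was 0.03 and 0.00. The 9 genes were below 0 in both cell types, as were 34.4% of all genes. Since the genes were listed for their counts in these libraries, these shares do not show how leukocyte genes in general behaved.

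Ptprc (ENSMUSG00000026395, chromosome 1, 138062861 to 138175708), the general leukocyte marker, had 70, 22, 116 and 18 counts. High-passage DSCs were thus lowest although low-passage DSCs were highest. The log2 ratio was -1.63 (-2.40 to -0.92) in DPCs and -2.95 (-3.76 to -2.23) in DSCs. Of the low-passage level, 32.2% was left in DPCs and 12.9% in DSCs. Csf1r (ENSMUSG00000024621, chromosome 18), the growth factor receptor of macrophages, had 328, 156, 570 and 223 counts, and its proportional difference was also larger in DSCs. Its log2 ratio was -1.04 (-1.32 to -0.76) in DPCs and -1.62 (-1.85 to -1.39) in DSCs. Over Csf1r, 15.1% of the exonic bases are shared with Hmgxb3 on the opposite strand, which had 2092, 2033, 2342 and 2394 counts, and the use of strand in counting is not given in the sources used here.

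The adaptor genes Tyrobp and Fcer1g were among the more strongly lowered in DPCs. Tyrobp (ENSMUSG00000030579, chromosome 7, 30413760 to 30417585) had 137, 21, 156 and 65 counts. The log2 ratio was -2.67 (-3.41 to -2.00) in DPCs and -1.53 (-1.97 to -1.10) in DSCs, so that 15.7% and 34.7% of the low-passage level were left. Fcer1g (ENSMUSG00000058715, chromosome 1, 171229572 to 171234365) had 201, 44, 243 and 77 counts. Its log2 ratio was -2.16 (-2.66 to -1.68) in DPCs and -1.92 (-2.31 to -1.55) in DSCs, with overlapping intervals. A mean pattern over the 4 libraries was taken from the 9 genes with a mean count of at least 10. Of the 10 genes, Fcer1g lay nearest to it, at a Euclidean distance of 0.197 on centred log2 CPM, and Evi2b farthest, at 2.85.

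Among the effector and surface genes, C1qa (ENSMUSG00000036887, chromosome 4, 136895917 to 136898803) differed most in DPCs of the genes with counts in all libraries. It had 401, 27, 384 and 144 counts, nearly alike in the low-passage libraries and far apart at high passage. The log2 ratio was -3.86 (-4.48 to -3.29) in DPCs, where 6.90% of the low-passage level was left, and -1.68 (-1.97 to -1.40) in DSCs, where 31.2% was left. The partner chains C1qb and C1qc, which assemble with C1qa into C1q, had 458, 49, 502 and 292 counts and 480, 24, 454 and 267 counts. Summed over the 3 chains, 7.66% was left in DPCs and 43.7% in DSCs. C1qa supplied between 22.1% and 32.0% of the FPKM of the chains in each library. Adgre1 (ENSMUSG00000004730, chromosome 17, 57358686 to 57483529) had 118, 27, 157 and 95 counts. Its log2 ratio was -2.09 (-2.75 to -1.48) in DPCs and -0.99 (-1.37 to -0.61) in DSCs, and its value of -2.02 on the prior-count scale in DPCs was barely past the 4-fold limit. With halved counts it was -1.95, short of the limit.

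Lyz2 was the least lowered gene in DPCs and Cd68 in DSCs. Lyz2 (ENSMUSG00000069516, chromosome 10, 117277331 to 117282321) had 3396, 1963, 4971 and 3567 counts. The log2 ratio was -0.75 (-0.84 to -0.67) in DPCs and -0.74 (-0.81 to -0.68) in DSCs, and 59.3% and 59.7% of the low-passage level were left. Its intestinal paralog Lyz1, which shares 15.4% of the 50-base windows of Lyz2, had at most 10 counts in a library. Cd68 (ENSMUSG00000018774, chromosome 11, 69664213 to 69666153) had 264, 119, 405 and 300 counts. Its log2 ratio was -1.11 (-1.44 to -0.80) in DPCs and -0.70 (-0.92 to -0.48) in DSCs. Neither Lyz2 nor Cd68 was called, and in a list of 16 lysosomal genes none was called in either direction. The median of that list was 0.18 in DPCs and 0.11 in DSCs, with 6 and 4 genes below 0. Its difference from Lyz2 and Cd68 was not tested. Lamp1, a lysosomal membrane protein, had 60996, 76871, 87123 and 108057 counts, and Psap, a precursor of sphingolipid activators, had 45696, 53276, 67972 and 102523.

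Evi2b and Cd74 had too few counts for a firm value. Evi2b (ENSMUSG00000093938, chromosome 11, 79515056 to 79523762) had 48, 0, 57 and 0 counts. Set against a floor of 3 counts per library, it was at least 15.6-fold lower in DPCs at passage 9 and at least 22.8-fold lower in DSCs, and against the 6 counts that apply if both mates of a pair were counted at least 7.80-fold and 11.4-fold. With the counting error of the low-passage library included, the interval of its log2 ratio ended at -3.61 in DPCs and -4.17 in DSCs, and with halved counts at -2.55 and -3.09. However, 98.5% of its exonic bases are also annotated as exon of a longer gene on the same strand, Gm21975 (Evi2 in GENCODE M21), which had 11, 15, 2 and 20 counts and was called higher in DSCs. Summed over both genes the counts were 59, 15, 59 and 20, and the log2 ratio was -1.94 (-2.86 to -1.10) in DPCs and -1.83 (-2.64 to -1.07) in DSCs. The fold of Evi2b alone thus depended on how reads were divided between the overlapping genes, and with the summed counts no gene was called in both cell types. Evi2a, the neighbouring gene in the same intron, had 60, 40, 81 and 41 counts, and Nf1 around them had 3045, 3512, 3513 and 4420. Cd74 (ENSMUSG00000024610, chromosome 18) had 11, 2, 7 and 3 counts, under the limit for testing, and its interval included 0 in DSCs (-4.07 to 0.64).

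**Figure D2:**
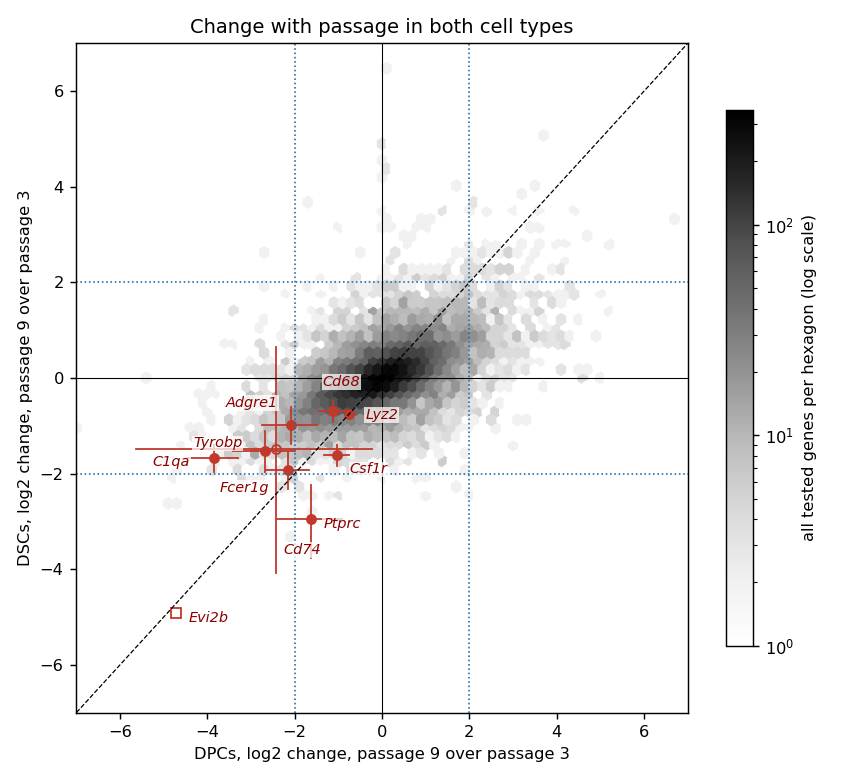
Log2 ratio of high over low passage in DPCs (horizontal) and in DSCs (vertical), with each gene in red and exact 95% counting intervals as lines. Grey hexagons count all tested genes within the axes on the prior-count scale, dotted lines mark the 4-fold limit and the dashed line equal change. Evi2b (open square, prior-count scale, no interval) and Cd74 (open circle, too few counts for testing) are low-count genes, and all 10 lie below 0 on both axes.

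The size of this difference itself differed between the cell types for some of the genes beyond counting error, as computed on the deposited counts. The DSC log2 ratio minus the DPC log2 ratio was 2.18 (1.55 to 2.80) for C1qa, 1.14 (0.36 to 1.92) for Tyrobp, 1.10 (0.40 to 1.81) for Adgre1 and 0.42 (0.04 to 0.79) for Cd68, all less lowered in DSCs. It was -1.32 (-2.32 to -0.32) for Ptprc and -0.58 (-0.94 to -0.23) for Csf1r, both more lowered in DSCs. For Lyz2, Fcer1g and Cd74 the interval included 0. These intervals compare 4 libraries, not cell types, and the spread between cultures is unknown. They were not recomputed with halved counts, which would widen them, and some may then include 0.

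**Figure D3:**
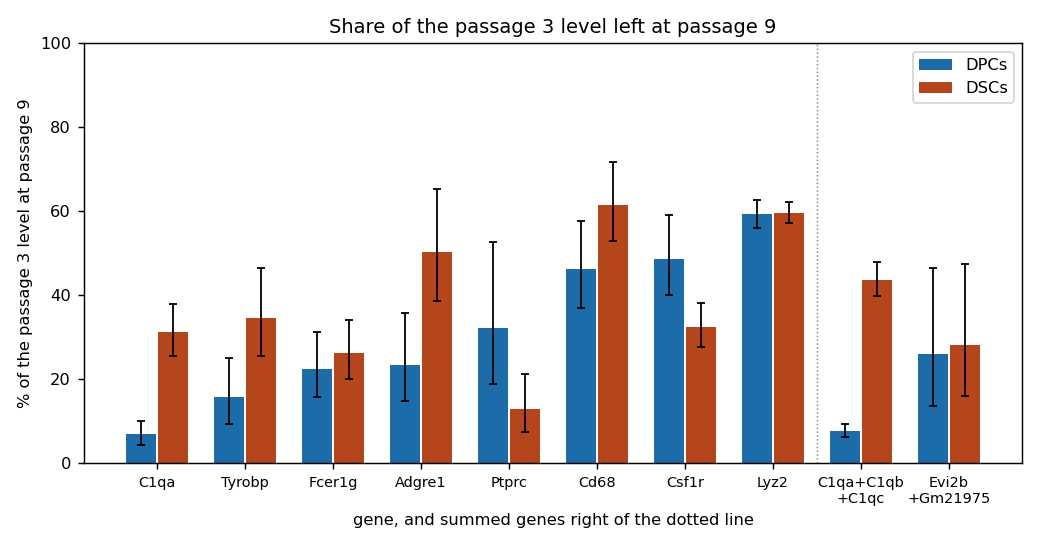
Percent of the low-passage level (TMM-scaled counts) present at high passage, for the 8 genes with a mean count of at least 10 and counts in every library, and right of the dotted line for the 3 C1q chains summed and for Evi2b summed with the overlapping Gm21975. Bars start at 0, error bars are exact 95% counting intervals, and the values run from 6.90% for C1qa in DPCs to 61.6% for Cd68 in DSCs.

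DSCs were then compared with DPCs at each passage. None of the genes was called 4-fold different at passage 3, where 1.52% of all genes were called lower and 2.77% higher in DSCs, or at passage 9, where 2.50% were lower and 3.91% higher. At passage 3 the log2 ratio of DSCs over DPCs was 0.75 (0.56 to 0.95) for Csf1r, 0.69 (0.25 to 1.13) for Ptprc, 0.57 (0.35 to 0.80) for Cd68, 0.51 (0.44 to 0.57) for Lyz2 and 0.37 (0.01 to 0.73) for Adgre1, whose interval included 0 with halved counts (-0.15 to 0.87). Fcer1g, Tyrobp, C1qa, Evi2b and Cd74 had intervals that included 0. At passage 9 C1qa was furthest apart, at 2.07 (1.47 to 2.72), with 1.998 on the prior-count scale just short of the limit. Adgre1, at 1.47 (0.84 to 2.14), and Tyrobp, at 1.29 (0.56 to 2.07), came next, then Cd68 at 0.99 (0.68 to 1.31) and Lyz2 at 0.52 (0.44 to 0.60). Csf1r, Fcer1g and Ptprc had intervals that included 0 at passage 9. The comparisons between cell types use the same libraries as those between passages.

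Related genes that are not among the 10 were described from lists of textbook markers. For the counts called in all these lists, the shares of all genes called lower were 4.36% in DPCs, 1.16% in DSCs and 0.508% in both. The shares called higher were 5.58%, 2.67% and 1.27%. Of 18 pan-leukocyte genes with a mean count of at least 10, 7 were called lower in DPCs and 3 in DSCs, none was called higher, and the medians were -1.80 and -1.39. All 18 were below 0 in both cell types. Arhgdib was the most abundant, with 6445, 3789, 1136 and 964 counts. Laptm5, a lysosomal protein of leukocytes, had 736, 98, 489 and 186 counts, and the actin bundler Lcp1 had 532, 89, 426 and 193. The integrin chain Itgb2 had 137, 30, 241 and 163 counts and the WAVE complex subunit Nckap1l had 128, 65, 201 and 101. Was, the actin regulator lost in Wiskott-Aldrich syndrome, was called in both cell types with 24, 4, 35 and 2 counts.

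Of 17 macrophage genes, 7 were called lower in DPCs and 1 in DSCs, and the medians over their 18 identifiers were -1.75 and -0.91. Itgam, the integrin CD11b, has 2 overlapping identifiers, and their summed counts were 146, 33, 150 and 109. The fractalkine receptor Cx3cr1 was the 1 called in both, with 110, 0, 132 and 19 counts, at least 35.8-fold lower in DPCs against a floor of 3 counts and 17.9-fold against 6. The interval of its log2 ratio there ended at -4.84, or at -3.81 with halved counts. Mpeg1, which encodes the pore-forming perforin-2, had 768, 216, 783 and 477 counts. Not all genes of this list were lower. Cd14, the lipopolysaccharide co-receptor, had 207, 750, 268 and 550 counts, and Mertk, a receptor for dying cells, had 151, 587, 212 and 259, both higher at high passage in DPCs by less than 4-fold.

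Among myeloid signalling genes the medians were less negative than those of the 9 tested genes, and this difference was not tested. Of 13 tested, 3 were called lower in DPCs and none in DSCs, and the medians were -0.95 and -0.51. The kinase Syk, which docks on phosphorylated ITAMs, had 204, 50, 670 and 410 counts. The kinase Lyn had 668, 459, 696 and 806 counts and the transcription factor Cebpa had 505, 309, 604 and 295. Plcg2, at 776, 764, 455 and 715 counts, and the widely expressed linker Grb2, at 2416, 2606, 2575 and 3597, were not lower in DSCs. Among 8 tested receptors that pair with the adaptors of Tyrobp and Fcer1g, none was called in DPCs. In DSCs 2 were called lower (Trem1 and Clec5a) and 1 higher (Oscar). The medians were -0.50 and -0.87. Trem2 had 82, 23, 83 and 59 counts, Fcgr3 had 66, 25, 101 and 94, and Clec5a had 43, 17, 44 and 8. Cd300lb went the other way, with 51, 160, 104 and 244 counts, and Clec4d had 29, 33, 52 and 30.

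Cd74 works with MHC class II. Of 5 class II genes tested, 1 was called lower in DPCs (H2-Ab1, with 55, 7, 42 and 60 counts) and none in DSCs, and the medians were 0.73 and 0.66. H2-DMa, with 143, 279, 169 and 323 counts, and H2-DMb1, with 272, 569, 445 and 922, which load peptides onto class II molecules, were higher at high passage in both cell types by less than 4-fold. H2-Eb1 had 11, 19, 15 and 7 counts and H2-DMb2 had 8, 11, 8 and 24.

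Several ligands of myeloid receptors, which stromal cells make, had high counts. Of the 12 ligands listed, 10 reached the limit for testing and 1 had no counts. Csf1, a ligand of Csf1r, had 19072, 27892, 47370 and 48206 counts, which placed it higher at high passage in DPCs by 0.58 and lower in DSCs by 0.24 on the log2 scale. Its FPKM was 74.5, 288, 135 and 338 times that of Csf1r. Il34, the other ligand, named after its values had been seen, had 455, 116, 375 and 524 counts. Gas6, at 10446, 14175, 16499 and 37953 counts, and Pros1, at 2443, 4945, 2594 and 5875, which bridge dying cells to Mertk, were higher at high passage in both cell types. The chemokine Ccl2 had 5675, 14639, 1295 and 2707 counts and Mif had 8656, 6902, 7749 and 8564. Of 10 ligands tested, 1 was called lower in DPCs and none in DSCs, with medians of -0.08 and 0.38.

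**Figure D4:**
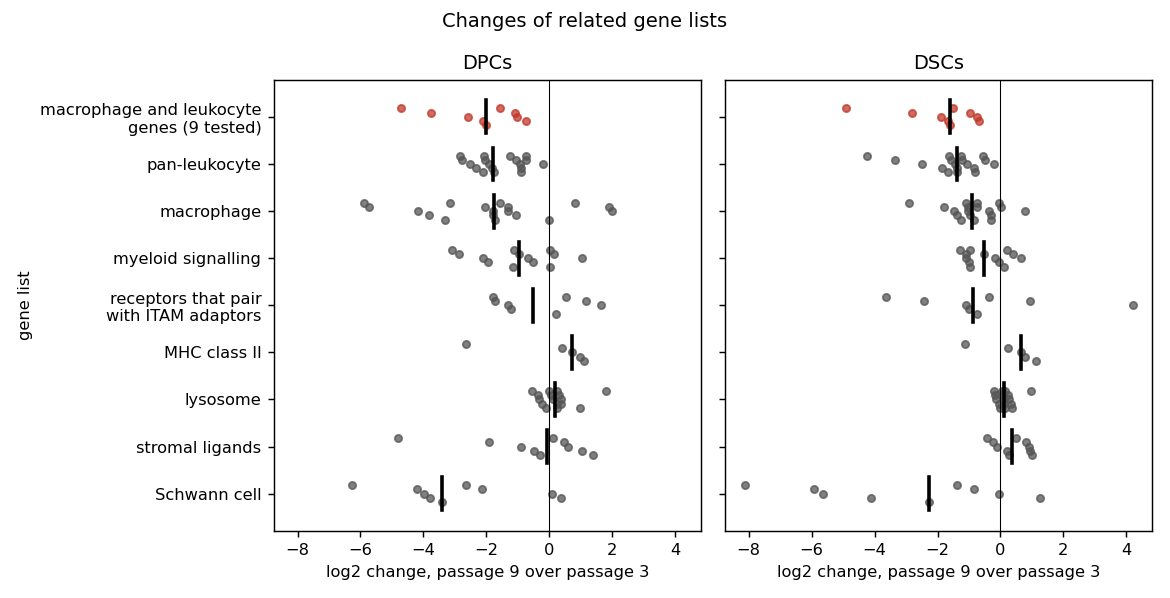
Log2 change from low to high passage on the prior-count scale for each tested gene of the lists, in DPCs (left) and DSCs (right), with the list median as a black bar. The pan-leukocyte genes lie below 0 throughout, as the 9 tested macrophage and leukocyte genes do, whereas the lysosomal genes lie around 0 and the MHC class II medians above it.

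Markers of other blood cells were scarce. Of 9 mast cell genes, 6 had no counts and none had more than 2 (Ms4a2 and Hdc had 2 at most), although Fcer1g is also an adaptor of mast cells. Of 10 neutrophil genes 8 had no counts, S100a9, Ly6g, Mpo and Elane among them. S100a8 had 37, 12, 0 and 0 counts and Camp had 7 at most. Of 17 T and NK cell genes 9 had no counts, including Cd3e, Cd3d and Cd3g, while Trac, with 45, 6, 35 and 50 counts, and Il7r, with 14, 0, 20 and 15, were called lower in DPCs. Of 8 B cell genes, Cd79b, Ms4a1 and Igkc had none, Ighm had 6, 0, 0 and 23 and Jchain 0, 14, 0 and 10. In the dendritic list of 10 genes, Flt3, Cd209a, Clec9a and Siglech had none, Itgax, with 25, 0, 6 and 51 counts, was called lower in DPCs and higher in DSCs, and Zbtb46, which endothelial cells also express, had 74, 174, 104 and 139. Of 5 erythroid genes only Alas2 had counts, at most 4. Of 5 tested genes in the osteoclast list, 2 were called lower in DPCs and 1 higher in DSCs. Its most abundant gene, Ctsk, is also made by fibroblasts and had 5972, 2513, 7937 and 7505 counts, and Tnfrsf11a, the RANK receptor, had 30, 64, 28 and 79.

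Markers of other cell types of the follicle differed with passage as well. Of 9 tested Schwann cell genes, 7 were called lower in DPCs and 5 in DSCs, against 4.36% and 1.16% of all genes. The 5 called in both were Ngfr, Sox10, Cdh19, Erbb3 and Foxd3, and of these Ngfr, with 144, 0, 544 and 0 counts, was the most abundant, while Mbp had 93, 97, 219 and 257. The list summed to 16.1, 6.35, 38.8 and 11.8 CPM. Of 5 tested endothelial genes, Cdh5, with 16, 0, 45 and 0 counts, and Tek, with 59, 0, 114 and 31, were called lower in both cell types. Vwf, with 5, 194, 91 and 10 counts, was called higher in DPCs and lower in DSCs, and Egfl7 had 58, 64, 34 and 72 counts. The list summed to 4.24, 7.30, 8.99 and 2.87 CPM. In DPCs at passages 3 and 9 Vwf supplied 5 of 156 and 194 of 262 counts, so the higher sum at passage 9 came from Vwf. The pan-leukocyte list summed to 238, 121, 88.5 and 44.2 CPM and the macrophage list to 86.8, 54.1, 93.7 and 59.9. Arhgdib alone supplied 6445 of the 8742 pan-leukocyte counts in low-passage DPCs, so that sum mostly follows 1 gene there. The macrophage sum includes Cd14 and Mertk, which were higher at high passage in DPCs. The part of other cell types in the values of the 10 genes was not tested.

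The remaining lists describe the cultures. Of 3 tested keratinocyte genes, Dsp was called higher in both cell types, with 10, 184, 84 and 2307 counts, and Krt10 had 61, 33, 53 and 58. Neither of the 2 tested melanocyte genes was called, with 394, 980, 435 and 544 counts for Mitf, which macrophages also express, and 17, 36, 33 and 47 for Pmel. Of 7 tested dermal papilla genes, 2 were called lower in DPCs and 1, Crabp1, higher in DSCs. Ncam1, which the study also uses as a sheath marker, had 3642, 1673, 11755 and 15584 counts. Of 11 dermal sheath and fibroblast genes, 3 were called lower and 1 higher in DPCs and 3 higher in DSCs. Itga8 was the 1 called higher in both, with 6837, 34714, 1674 and 23287 counts. Col1a1 had 266500, 43703, 405062 and 376457 counts and Col1a2 had 239471, 94054, 448260 and 450883.

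Finally, genes outside these lists were sought whose pattern over the 4 libraries was most like the mean of the 9 tested genes. The search covered 16590 genes by Euclidean distance on centred log2 CPM. Cenpm, a centromere protein of dividing cells, had 236, 42, 270 and 86 counts at a distance of 0.198. Nfam1, an ITAM-bearing receptor of immune cells, had 38, 7, 49 and 18 counts at 0.205. AC139323.1 was nearest, at 0.131 with 17, 2, 21 and 5 counts, and Srl and Lrr1 followed at 0.221 and 0.229. This likeness over 4 libraries is a description only.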

How the data were processed

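RNA was measured in 4 libraries, DPCs and DSCs at passages 3 and 9, 1 per group. Per the labels RNA was extracted with Trizol and libraries were made with an Illumina TruSeq kit, while the study's methods name another kit with poly-T selection and paired-end sequencing. The authors deposited raw gene counts in 1 table and FPKM per library, normalized by them for transcript length and depth. The submitters' processing notes name Bowtie 0.12.2 and the builds mm8 and mm9 without a role. The counting program and use of strand are not given in the sources used here. Of 51826 gene identifiers, 51633 were found in GENCODE M21 (GRCm38), 94.2% of them at the deposited position, so coordinates are given as deposited and read as GRCm38.

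Counts were scaled with TMM in edgeR 4.0.16 (R 4.3.3). Log2 CPM used a prior count of 2, genes with a mean count of at least 10 (16734) were compared, and a 4-fold difference was called. Intervals are exact Clopper-Pearson 95% intervals, computed on how a gene's counts divide between a pair of libraries (SciPy 1.17.1), and a count of 0 was set to a floor of 3 counts (between 0.0658 and 0.0836 CPM). Both cover counting error only. Even counts were in excess, with 1339 genes at 2 counts and 583 at 3 in low-passage DPCs, a pattern that counting both mates of a pair gives. With halved counts the passage intervals of 9 of the 10 genes excluded 0 in DPCs and 9 in DSCs, and the floor is 6 counts. The calculation was tested on simulated data.

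The 10 genes and the 21 other lists were chosen with earlier results of these data known. Besides the 10 genes, the text names the 5 genes of highest summed count in the macrophage, pan-leukocyte, signalling, receptor, class II and ligand lists and the 2 highest in the others, genes called in both cell types with 1 sign, and the 5 genes nearest the mean pattern. Other markers are named where they had no counts. Promoter windows came from RefSeq; Tyrobp, Csf1r, Adgre1, Cd74 and C1qa had no match. Alternatives were other scalings, prior counts, FPKM, filters, limits and halved counts.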

Additional observations from a re-analysis of the deposited data

Results flagged for a closer look

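None of the 10 genes had a library that differed in direction from the others, since all were lower at high passage in both cell types. Of 79 genes of the lists and among the 10 that were looked at, 7 differed between low and high passage in opposite directions in DPCs and DSCs with both counting intervals excluding 0. Each rests on 1 library per group, and the difference was not tested. For the Csf1r ligands, the DSC log2 change minus the DPC log2 change was -0.82 for Csf1 (0.58 in DPCs, -0.24 in DSCs) and 2.14 for Il34 (-1.92 and 0.22). The dendritic cell integrin Itgax had a difference of 6.32 and the immunoglobulin gene Ighm 5.50, from at most 51 and 23 counts in a library. The endothelial gene Vwf had a difference of -8.05. In the dermal papilla list the difference was 1.23 for Ncam1, which the study also uses as a sheath marker, and 4.07 for Crabp1.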

How the results depend on the processing

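Single genes were recomputed under 8 other settings, and Evi2b under 1 chosen after seeing the data. All 162 values stayed below 0, and 21 moved outside their counting interval, 13 of them on FPKM with a pseudocount of 1. Under scaling by total counts, median of ratios or upper quartile, no count of called genes moved. In DPCs the count of 5 genes called lower became 4 with halved counts and on FPKM with a pseudocount of 0.1, where Adgre1 was at -1.95 and -1.71. Of all genes, 3.81% and 3.17% were called lower there. The count was 3 with a prior count of 10 (2.83% of all genes) and 1 on FPKM with a pseudocount of 1 (1.06%). It was 2 with a mean count of at least 100 (3.09% of such genes) and 8 with a limit of 2-fold (15.0% of all genes). In DSCs the count of 2 became 1 on FPKM with a pseudocount of 0.1 (0.574% of all genes) and 0 with a pseudocount of 1 (0.114%). It was 0 with a mean count of at least 100 (0.484% of such genes) and 6 at 2-fold (6.21% of all genes). Between cell types at passage 9, 1 gene was called with a prior count of 0.5 and 3 at 2-fold. The shares of all genes called higher there were not computed, so nothing is read from these counts. The median moved to -0.75 in DPCs and -0.76 in DSCs on FPKM with a pseudocount of 1, and to -1.10 in DPCs with a mean count of at least 100, which left 5 genes. The log2 ratio of the sum, -1.03 in DPCs and -0.92 in DSCs, moved to -1.11 in DPCs on FPKM with a pseudocount of 0.1, to -2.09 and -1.70 without Lyz2 and Cd68, and to -1.88 and -1.44 without Lyz2, an alternative added after seeing the data. Summing Evi2b with Gm21975, also added after seeing the data, moved Evi2b to -1.82 in DPCs and -1.71 in DSCs on the prior-count scale, under the 4-fold limit. With 1 library per group no replicate could be left out. No paired analysis was possible because each group has 1 library, so the groups share only 1 replicate number, and no result comes from a test. Depth limits Cd74, with at most 11 counts in a library.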
